A study of Mus musculus with 3 samples.

Results

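Lysosomal enzymes and membrane proteins were followed through 33 genes, out of 19938 genes named on the array, in CT26 cells with a control microRNA or with the miR-17~92 microRNA cluster at a medium or a high level. The members were taken by gene symbol: a probe set belonged to the set when its only annotated gene was one of the 33. All 33 were found, each with 1 probe set. They comprise 12 proteases, 8 genes of glycan breakdown (glycosidases and the sulfatase gene Galns), 7 genes of lipid breakdown and cholesterol export, and 6 genes of membrane proteins and progranulin.

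The lysosome is the acidic compartment in which cells break down proteins, glycans and lipids taken up by endocytosis or delivered by autophagy. Its soluble hydrolases are made in the endoplasmic reticulum, tagged with mannose 6-phosphate in the Golgi and carried by receptors to endosomes, while membrane proteins such as the LAMPs line its membrane and protect it from the enzymes inside. Many of these genes carry an E-box read by the transcription factors TFEB, TFE3 and MITF. Carcinoma cells commonly express and secrete cathepsins, and several members are at their most abundant in macrophages.

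CT26 is a colon carcinoma line of mouse origin, kept here in medium with 10% fetal bovine serum. The 3 groups were miR-Ctrl (Ctrl), transfected with a vector for a control microRNA, miR-17~92Med (Med), with the cluster at medium levels, and miR-17~92Hi (Hi), with the cluster at high levels. Cells of every group were selected with puromycin, sorted for GFP and diluted to obtain single-cell clones. The design text names 3 subclones per group, but each group has 1 column of log2 values. The labels do not say if a column is 1 subclone, a pool or a mean. Differences below therefore have no measured error and no test was possible; the words higher and lower describe only the 3 columns. A log2 difference of 1 or more is called 2-fold.

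The Ctrl column stood apart from Med and Hi over the whole array. Its interquartile range over probe sets was 2.42, against 3.12 in Med and 3.08 in Hi. Mitochondrially encoded COX2, the cytochrome oxidase subunit, was at 6.00 (Ctrl), 13.40 (Med) and 13.31 (Hi), and ND3 at 5.07, 12.49 and 12.21 in the same order, so that both lay under the background gauge described next in Ctrl and far above it in Med and Hi. No label says if the Ctrl column was hybridized and normalized together with the others, and that it comes from the same cells rests on the labels alone. Values were identical in Ctrl and Med for 9.53% of all genes, and in Ctrl and Hi for 10.1%. Such ties also occurred at high levels, as for Chmp4b at 11.62 in all 3 columns. What produced them was not tested. The levels of 1194 olfactory and vomeronasal receptor genes served as a gauge of background, with a 95th percentile of 6.87 (Ctrl), 6.18 (Med) and 6.20 (Hi). Of 14 epithelial and colon markers, 5 lay below that gauge in Ctrl and 6 in both Med and Hi, Epcam (6.15, 5.14 and 5.14), Vil1 (6.34, 5.93 and 5.93) and Cdx2 (6.79, 5.77 and 5.89) among them in every column. Of the 14, 8 were 2-fold lower than Ctrl in Med and 6 in Hi, where 16.3% and 15.4% of all genes were lower. Among them were Krt8 (8.92, 7.28 and 7.32) and Cldn7 (7.71, 5.89 and 6.10). The 8 in Med included Epcam and Cdx2, whose signals lay in the background range in every column. They also included Cldn7 and Muc2, which lay below the gauge in Med and Hi, so the size of their differences is not known. The medians of the 14 were -1.02 and -0.92 as deposited, and -0.38 and -0.34 with cyclic loess, under which Cldn7 differed by -0.99 in Hi. The keratin gene Krt18 was the 1 marker of that list 2-fold higher (7.97, 11.41 and 12.28), and Krt19 was at 7.50, 7.50 and 7.87. Of 13 macrophage markers, 8 lay below the gauge in Ctrl, 9 in Med and 10 in Hi, including Ptprc, Csf1r, Adgre1, Itgam and Lyz2 (5.64, 5.25 and 5.10) in every column. Cd14 (6.91, 7.29 and 7.32), Tyrobp and C1qa lay above it in every column, Fcgr1 in Ctrl and Med, and C1qb in Ctrl. Every comparison with Ctrl below rests on that 1 column, and only Hi against Med is free of it. Of the members, 8 lay below the gauge in Ctrl (Ctsc, Ctsh, Ctsk, Ctss, Lamp2, Cd63, Lipa and Scarb2), and 4 in Med and in Hi (Ctsc, Ctsh, Ctsk and Ctss). What sets the Ctrl column apart, and its part in the differences below, was not tested.

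The agents of the study are the mature microRNAs that the mouse cluster encodes. Their RefSeq sequences (assembly GRCm38.p6) are shown to identify them, 5′ to 3′, with the seed (bases 2 to 8) in capitals. miR-17 and miR-20a share a seed, as do miR-19a and miR-19b. Target sites in the lysosomal genes were not analysed here.
mmu-miR-17-5p, chr14:115043684-115043706, plus strand: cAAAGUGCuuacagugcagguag
mmu-miR-20a-5p, chr14:115044183-115044205, plus strand: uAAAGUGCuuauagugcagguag
mmu-miR-18a-5p, chr14:115043867-115043889, plus strand: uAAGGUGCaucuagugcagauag
mmu-miR-19a-3p, chr14:115044048-115044070, plus strand: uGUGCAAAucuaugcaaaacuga
mmu-miR-19b-3p, chr14:115044358-115044380, plus strand: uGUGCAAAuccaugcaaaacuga
mmu-miR-92a-3p, chr14:115044476-115044496, plus strand: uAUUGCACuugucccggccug

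Promoters of the members are shown because lysosomal genes are known for a shared E-box. RefSeq promoter windows (GRCm38.p6, 250 bases before to 50 after the start of the gene) were found for 28 of the 33 members, with no entry for Ctsb, Ctsh, Npc1, Asah1 and Galns. The E-box CACGTG lay in the windows of 8 of these 28 genes (28.6%), against 9.5% of the 15614 array genes with a window. The longer TCACGTGA, which contains CACGTG, lay in 3 of 28 (10.7%), against 1.52% of array genes. The full CLEAR element, which adds a G before and a C after that motif, lay in 0 of 28, against 0.525%. All 3 motifs are palindromes, so 1 strand covers both. The GC content of the members' windows had a median of 54.7%, against 57.3% over array genes. A match is a run of letters and not a measured binding site.

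Windows of Ctsa, Ctsd and Gla hold TCACGTGA and are printed whole on the strand of the gene, with the longest matched motif in capitals. In Ctsa the motif occurred at both sides of the start site, beginning 13 bases before it. In Ctsd it began 99 bases before the start site, with a further CACGTG beginning 245 bases before it. In Gla it occurred at 228 and 195 bases before the start site.
Ctsa, chr2:164833523-164833822, plus strand: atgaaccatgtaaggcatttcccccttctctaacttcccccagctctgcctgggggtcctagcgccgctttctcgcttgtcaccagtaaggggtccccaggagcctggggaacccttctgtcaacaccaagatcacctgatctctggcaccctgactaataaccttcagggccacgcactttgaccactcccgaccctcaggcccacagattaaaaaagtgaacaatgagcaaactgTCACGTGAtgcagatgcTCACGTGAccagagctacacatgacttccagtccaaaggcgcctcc
Ctsd, chr7:142387778-142388077, minus strand: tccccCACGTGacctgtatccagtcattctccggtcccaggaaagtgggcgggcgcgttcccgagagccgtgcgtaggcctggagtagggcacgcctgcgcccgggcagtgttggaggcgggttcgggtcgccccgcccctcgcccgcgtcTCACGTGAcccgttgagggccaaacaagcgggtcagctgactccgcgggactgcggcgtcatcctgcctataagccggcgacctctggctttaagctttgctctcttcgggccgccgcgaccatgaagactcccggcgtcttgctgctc
Gla, chrX:134600956-134601255, minus strand: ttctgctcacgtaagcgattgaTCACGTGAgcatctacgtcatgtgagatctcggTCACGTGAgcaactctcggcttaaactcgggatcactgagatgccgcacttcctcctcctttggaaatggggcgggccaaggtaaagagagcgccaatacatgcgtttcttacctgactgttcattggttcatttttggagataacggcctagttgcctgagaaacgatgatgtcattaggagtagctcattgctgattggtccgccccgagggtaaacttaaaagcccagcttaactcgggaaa

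Shorter stretches, of up to 20 bases on each side of the first CACGTG in the window (in capitals), show the other 5 genes with the E-box. Lamp1 had 4 copies, beginning 61, 45, 28 and 15 bases before the start site. In Glb1 the copy began 48 bases before the start site, in Lgmn 49, in Gaa 140 and in Ctsl 236.
Lamp1, chr8:13159080-13159125, plus strand: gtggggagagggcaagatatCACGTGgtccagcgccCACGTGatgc
Glb1, chr9:114401010-114401055, plus strand: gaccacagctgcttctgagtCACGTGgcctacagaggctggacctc
Gaa, chr11:119267803-119267848, plus strand: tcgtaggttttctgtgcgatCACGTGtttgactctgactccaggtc
Lgmn, chr12:102439116-102439161, minus strand: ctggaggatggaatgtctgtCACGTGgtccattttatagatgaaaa
Ctsl, chr13:64370731-64370770, minus strand: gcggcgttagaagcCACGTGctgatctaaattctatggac

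The windows of Lamp2, the member with the widest deposited difference from Ctrl (its Ctrl level lay below the background gauge), and of Cd68, the member furthest apart between Hi and Med, held none of the 3 motifs and have no capitals.
Lamp2, chrX:38456411-38456710, minus strand: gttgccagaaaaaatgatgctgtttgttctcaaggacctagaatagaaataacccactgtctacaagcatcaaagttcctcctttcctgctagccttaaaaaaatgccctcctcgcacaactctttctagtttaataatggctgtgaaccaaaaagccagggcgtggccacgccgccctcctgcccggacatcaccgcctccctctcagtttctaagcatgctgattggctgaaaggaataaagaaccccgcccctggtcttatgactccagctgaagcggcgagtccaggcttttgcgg
Cd68, chr11:69666121-69666420, minus strand: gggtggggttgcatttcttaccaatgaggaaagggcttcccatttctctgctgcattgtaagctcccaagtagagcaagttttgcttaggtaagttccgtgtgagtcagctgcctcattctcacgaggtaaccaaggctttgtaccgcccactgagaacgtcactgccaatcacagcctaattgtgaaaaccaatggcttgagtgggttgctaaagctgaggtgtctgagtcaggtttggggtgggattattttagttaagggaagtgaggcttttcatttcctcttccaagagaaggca

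Compared with Ctrl, most lysosomal genes stood higher at medium and at high levels of the cluster. In Med, 25 of 33 members (75.8%) were at least 2-fold higher and 0 lower, where 18.3% of all genes were higher and 16.3% lower. In Hi, 24 of 33 (72.7%) were higher and 0 lower, against 17.5% and 15.4% of all genes. The 24 were also higher in Med, and Cd68 was the further one there. The members' median stood at 2.26 (Med) and 2.64 (Hi), where the medians over all genes were -0.20 and -0.19. Taken relative to these all-gene medians, 25 members were 2-fold higher in Med and 25 in Hi, against 20.9% and 19.9% of all genes. Since Med and Hi share the Ctrl column, they do not count as separate evidence. In bulk RNA of this kind, fewer cells with a transcript and less of it per cell cannot be told apart.

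A difference of 4 or more on the log2 scale was seen for 8 members in each column (24.2%), against 0.853% of all genes in Med and 0.732% in Hi. These were Ctsb, Ctsl, Lamp1, Lamp2, Cd63, Psap, Asah1 and Grn. The 8 members under 2-fold in both columns were Ctsc, Ctsh, Ctsk, Ctso, Ctss, Gusb, Man2b1 and Neu1. Levels of the members ran between 4.62 and 9.45 in Ctrl, 5.20 and 13.68 in Med and 5.20 and 13.49 in Hi, so no member reached 10 in Ctrl while 18 did in Med and in Hi. The same shift ran over the whole array: of 19938 genes, 416 lay above 10 in Ctrl, 1674 in Med and 1575 in Hi.

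**Figure D1:**
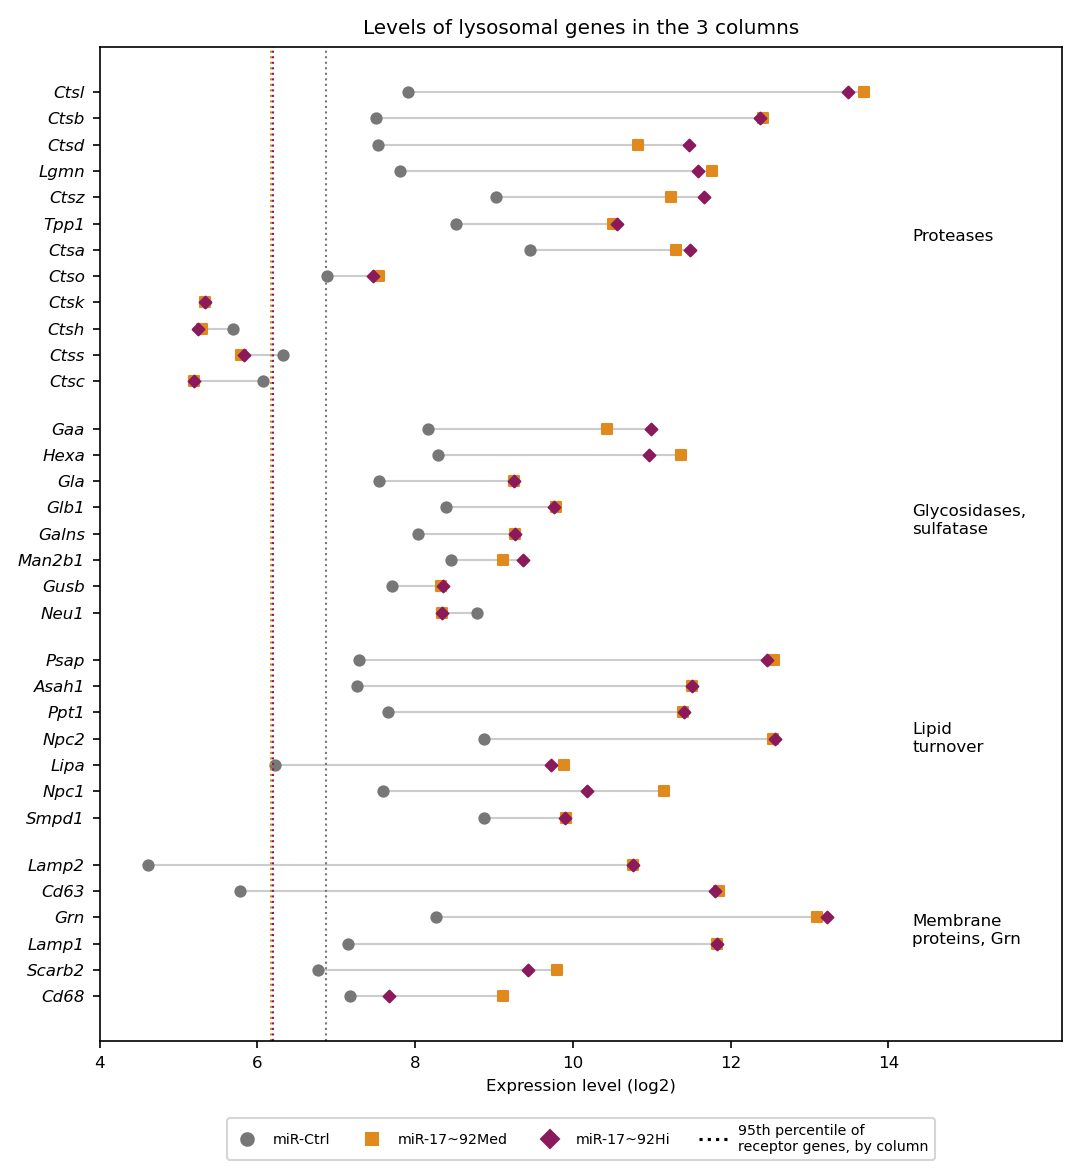
Expression level (x axis, log2) of each of the 33 lysosomal genes (rows, grouped by role) in miR-Ctrl (grey circles), miR-17~92Med (orange squares) and miR-17~92Hi (purple diamonds), 1 value per column, with dotted lines at the 95th percentile of 1194 receptor genes in each column. Grey circles lie left of the other symbols for most genes, with Ctsc, Ctsh, Ctss and Neu1 the other way round, and Ctsk at 5.34 in every column.

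**Figure D2:**
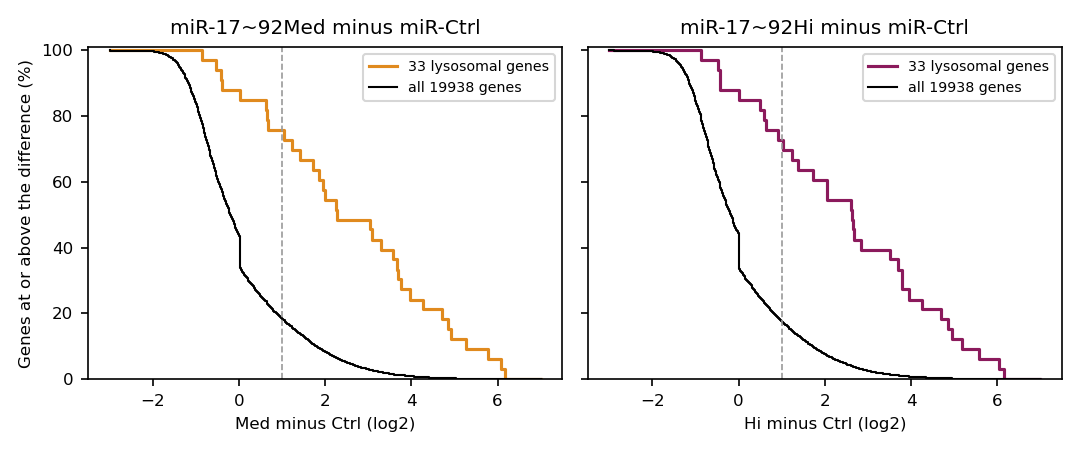
Percentage of genes (y axis) whose log2 difference from miR-Ctrl reached each value on the x axis, for the 33 lysosomal genes (coloured) and all 19938 genes (black), with miR-17~92Med at left and miR-17~92Hi at right. At the dashed 2-fold line the lysosomal genes stand at 75.8% in Med and 72.7% in Hi, and all genes at 18.3% and 17.5%.

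Those shares set the members beside all genes on the array, many of which are silent in these cells. Among the 9969 genes whose mean over Med and Hi reached the median, 36.2% were 2-fold higher in Med and 34.6% in Hi. Of the members, 29 belonged to those genes, a choice that favours genes high in Med and Hi, so no share is drawn from them. The members left out were Ctsc, Ctsh, Ctsk and Ctss.

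The proteases divided into a high group and a near-background group. Ctsl and Ctsb, cysteine endopeptidases of broad tissue range, were furthest above Ctrl: Ctsl was at 7.92 (Ctrl), 13.68 (Med) and 13.49 (Hi), a difference of 5.77 in Med and 5.58 in Hi. Ctsb was at 7.51, 12.41 and 12.37 in that order (4.90 and 4.86). Both genes were thus low in Ctrl and close together in Med and Hi. Lgmn, the asparaginyl endopeptidase that trims several cathepsins, was at 7.81 (Ctrl), 11.77 (Med) and 11.58 (Hi). The aspartic protease gene Ctsd was at 7.53, 10.82 and 11.47, and so differed from Ctrl by 3.29 in Med and 3.94 in Hi. Ctsz, a carboxypeptidase, was at 9.03, 11.25 and 11.66. These 3 genes were 2-fold above Ctrl in both columns, with Ctsd and Ctsz higher in Hi than in Med; under cyclic loess Ctsz differed by 0.78 in Med.

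Tpp1, a tripeptidyl peptidase, was at 8.52 (Ctrl), 10.51 (Med) and 10.56 (Hi). Its difference from Ctrl was under 2-fold with cyclic loess scaling (0.87 in Med and 0.95 in Hi). Ctsa, a serine carboxypeptidase that also shields the sialidase and beta-galactosidase, was at 9.45, 11.31 and 11.49, the member with the least contrast among the proteases 2-fold higher in Med. Its difference went under 2-fold with quantile normalization (0.67 and 0.89) and cyclic loess (0.36 in Med and 0.58 in Hi). In the deposited values 7 of the 12 proteases were 2-fold higher in each column and 0 lower.

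The remaining 5 proteases were under 2-fold. Ctso, a further cysteine cathepsin gene, was at 6.89 (Ctrl), 7.54 (Med) and 7.46 (Hi). The other 4 genes lay below the background gauge in every column, so their differences are between signals of the background range. Ctsc, which activates serine proteases of leukocyte granules, was at 6.08, 5.20 and 5.20. Ctss, which cleaves the invariant chain in antigen-presenting cells, was at 6.32, 5.79 and 5.83. The aminopeptidase gene Ctsh was at 5.70, 5.29 and 5.25, and the osteoclast collagenase gene Ctsk at 5.34 in all 3 columns. With cyclic loess the sign against Ctrl turned for Ctsh (0.13 in Med, 0.077 in Hi) and Ctss (0.11 and 0.13).

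Glycan-degrading enzymes had the lowest median of the 4 role groups, with 5 of 8 genes 2-fold higher in each column, 0 lower, and the median of the 8 differences at 1.32 (Med) and 1.30 (Hi). Hexa, the alpha subunit of beta-hexosaminidase, was at 8.29 (Ctrl), 11.37 (Med) and 10.96 (Hi). Gaa, the acid alpha-glucosidase that degrades glycogen, was at 8.17, 10.43 and 10.99. Gla, the alpha-galactosidase that is deficient in Fabry disease, was at 7.55, 9.25 and 9.25. For these 3 genes the 2-fold difference from Ctrl held under each of the 5 scalings compared.

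Glb1, the beta-galactosidase, was at 8.39 (Ctrl), 9.79 (Med) and 9.76 (Hi). Galns, a sulfatase of keratan sulfate, was at 8.03, 9.26 and 9.26. Both went under 2-fold with quantile normalization, cyclic loess and centring on the more strongly measured genes, down to 0.53 for Glb1 in Med and Hi and 0.60 for Galns in Med. Gusb, the beta-glucuronidase often used as a reference gene, was at 7.71, 8.32 and 8.35. Man2b1, the acid alpha-mannosidase, was at 8.45, 9.11 and 9.36, and with quantile normalization the sign of its Med difference turned (-0.03). Neu1, the sialidase held in a complex with the products of Ctsa and Glb1, was at 8.78, 8.35 and 8.35, the 1 glycosidase gene lower than in Ctrl. That Neu1 difference of -0.44 kept its sign under every scaling, and reached -1.13 in Med with quantile normalization. The 3 genes of that complex thus did not share a direction, with Ctsa and Glb1 above Ctrl and Neu1 below it.

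All 7 genes of lipid breakdown and cholesterol export were at least 2-fold higher in both columns, and their median stood at 3.67 (Med) and 3.68 (Hi). Psap encodes the precursor of the saposins, cofactors of sphingolipid hydrolases, and was at 7.29 (Ctrl), 12.55 (Med) and 12.47 (Hi). Asah1, the acid ceramidase, was at 7.26, 11.51 and 11.51. The depalmitoylating enzyme gene Ppt1 was at 7.65, 11.40 and 11.41. These differences ran from 3.75 for Ppt1 to 5.25 for Psap in Med.

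Npc1 and Npc2 together export cholesterol from the lysosome, Npc2 as the soluble carrier and Npc1 as the membrane transporter. Npc2 was at 8.88 (Ctrl), 12.54 (Med) and 12.56 (Hi). Npc1 was at 7.60, 11.16 and 10.18, above Ctrl in both and lower in Hi than in Med. Lipa, the acid lipase that frees the cholesterol, was at 6.22, 9.89 and 9.72. Its Ctrl level lay below the background gauge, so the size of its difference is not known. Smpd1, the acid sphingomyelinase, was at 8.87, 9.91 and 9.90, a difference of 1.04 and 1.03 that went under 2-fold with quantile normalization (0.14 and 0.17) and cyclic loess (0.045 and 0.059).

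Membrane protein genes and progranulin were furthest from Ctrl as a group, their medians being 4.76 (Med) and 4.82 (Hi). Lamp2, which is needed for fusion of autophagosomes with lysosomes, was at 4.62 (Ctrl), 10.76 (Med) and 10.76 (Hi). The tetraspanin gene Cd63 was at 5.78, 11.86 and 11.81. Lamp1, with Lamp2 the main glycoprotein of the membrane, was at 7.15, 11.83 and 11.83. On the log2 scale these are differences of 6.14, 6.07 and 4.68 in Med. The Ctrl levels of Lamp2 and Cd63 lay inside the background range, so their folds have an unknown size.

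Grn encodes progranulin, a secreted and lysosomal glycoprotein, and was at 8.27 (Ctrl), 13.10 (Med) and 13.22 (Hi). Scarb2, a membrane protein that carries an enzyme to the lysosome, was at 6.77, 9.80 and 9.43, its Ctrl level also under the gauge. Cd68, a heavily glycosylated LAMP relative used as a macrophage marker, was at 7.18, 9.12 and 7.67. It was 2-fold higher than Ctrl in Med (1.94) and not in Hi (0.49), where centring on the more strongly measured genes turned its sign (-0.05). Among the 13 macrophage markers, 0 were 2-fold higher in Med or Hi, and only Cd14 lay above Ctrl (0.38 in Med and 0.41 in Hi). In each column 3 were 2-fold lower (C1qa, C1qb and C1qc), where 16.3% and 15.4% of all genes were lower. None of these 3 was 2-fold lower with cyclic loess or with columns centred on the median of all probe sets. C1qc lay below the background gauge in every column, and C1qb in Med and Hi. Levels of the 13 ran from 4.63 to 7.29 in Med and 4.60 to 7.32 in Hi, against 5.12 to 7.48 in Ctrl.

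The scaling between columns moved the counts, and under each of 5 scalings more members were 2-fold higher than lower. With columns centred on the median of all probe sets 25 members were 2-fold higher in Med and 25 in Hi, with quantile normalization 21 and 20, and with cyclic loess 20 and 19. Centring on the genes whose mean reached the median of all genes, a setting added after the data were seen, gave 22 members higher and 4 lower (Med) and 21 higher and 2 lower (Hi). Under that centring 11.9% of all genes were higher and 42.8% lower in Med, and 11.6% and 40.2% in Hi. The median of all genes then stood at -0.80 and -0.73, where the deposited values gave -0.20 and -0.19. The 4 lower members in Med were Ctsc, Ctsh, Ctss and Neu1, and the 2 in Hi were Ctsc and Ctss. Over the 5 scalings, 19 members (57.6%) were 2-fold higher under every one in Med, against 10.1% of all genes, and 19 in Hi, against 9.72%. By role, the median difference in Med ran over the scalings from 0.83 to 2.22 in the proteases, from 0.57 to 1.61 in the glycan-degrading enzymes, from 2.53 to 3.97 in the lipid genes and from 3.21 to 5.05 in the membrane group.

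The split of all genes moved much more than that of the members. In Med, higher genes made up 52.9% of all genes called 2-fold apart in the deposited values, 76.5% with columns centred on all probe sets, 47.3% with quantile normalization, 66.1% with cyclic loess and 21.7% with centring on the more strongly measured genes. In Hi these shares were 53.1%, 78.0%, 48.0%, 67.0% and 22.4%.

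**Figure D3:**
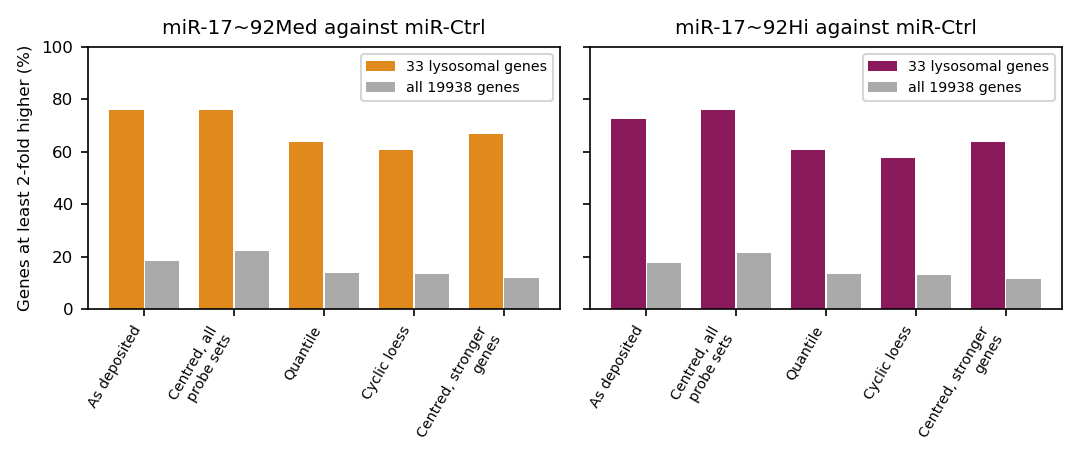
Percentage of genes at least 2-fold higher than in miR-Ctrl (y axis) under each of 5 scalings of the columns (x axis), for the 33 lysosomal genes (coloured bars) and all 19938 genes (grey bars), with miR-17~92Med at left and miR-17~92Hi at right. The coloured bars run from 60.6% to 75.8% in Med and from 57.6% to 75.8% in Hi, and the grey bars from 11.9% to 22.2% and from 11.6% to 21.3%.

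Other genes of the lysosome and of the routes to it were set beside the members as lists. For comparison, 18.3% of all genes were 2-fold higher in Med and 17.5% in Hi. Among the genes whose mean over Med and Hi reached the median, the shares were 36.2% and 34.6%. Of 23 further hydrolase genes, 12 passed 2-fold upwards in Med (52.2%) and 11 in Hi (47.8%). In each column 1 passed it downwards, and the medians were 1.12 and 0.91. Those medians ran from 0.53 to 1.42 over the scalings in Med and from 0.37 to 1.20 in Hi. The carboxypeptidase gene Scpep1 (Ctrl 7.73, Med 11.71 and Hi 11.26), the arylsulfatase Arsa (7.31, 10.20 and 10.58) and the ganglioside activator Gm2a (7.47, 10.35 and 10.54) were furthest from Ctrl. Galc, the galactosylceramidase gene, was at 9.53 in Hi, against 8.85 in Med. Of 23 further lysosomal membrane protein genes, 13 were higher in Med (56.5%) and 10 in Hi (43.5%), with 0 lower. Their medians were 1.10 and 0.83 as deposited, and 0.31 and 0.32 with cyclic loess. The sialomucin Cd164 (9.01, 12.53 and 12.23), the sialic acid exporter Slc17a5 (7.16, 9.96 and 9.30) and Lmbrd1 (6.81, 8.90 and 8.88), which takes part in the export of vitamin B12, led that list. In Ctrl, Lmbrd1 lay below the background gauge, so the size of its difference is not known. Of the named further genes, Sidt2 (9.40, 10.57 and 10.17), a nucleic acid transporter of the lysosomal membrane, differed by 1.17 in Med and 0.77 in Hi, and its sign turned with cyclic loess (-0.03 in Med and -0.40 in Hi) and, in Hi, with quantile normalization (-0.28).

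The V-ATPase pumps protons into the lysosome, and 10 of 15 subunit genes (66.7%) were 2-fold higher in each column with 0 lower. The list median was 1.85 (Med) and 1.86 (Hi). With cyclic loess that median was 0.84 (Med) and 1.01 (Hi). Atp6ap2 (Ctrl 6.87, Med 10.45 and Hi 10.27), Atp6v1b2 (8.65, 11.59 and 11.59) and Atp6ap1 (8.10, 10.72 and 10.95) were furthest from Ctrl by the mean of Med and Hi, while in Hi alone Atp6v1c1 (7.26, 9.61 and 10.22) lay further than the last 2 of these. Atp6v1c1 and Atp6v0a1 (8.23, 9.34 and 9.62) differed most between Hi and Med, by 0.62 and 0.28.

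Endosome and fusion genes had 11 of 20 higher in Med (55%) and 10 in Hi (50%), with 0 lower. They were led by the late endosome GTPase Rab7 (8.30, 11.70 and 11.57), the retromer gene Vps35 (7.45, 10.43 and 10.38) and the tethering gene Vps41 (7.00, 9.78 and 9.80). Their medians were 1.32 and 1.05 as deposited, and 0.39 and 0.46 with cyclic loess. Between Hi and Med, Vamp8, a SNARE gene of endosome fusion, differed by 0.48 (10.10 in Hi, against 9.62 in Med). Of 17 autophagy genes, 6 were higher in each column (35.3%) and 0 lower. That share was near those of the genes whose mean over Med and Hi reached the median (36.2% in Med and 34.6% in Hi). The autophagy medians were 0.67 and 0.33, which quantile normalization turned to -0.11 in Med and -0.19 in Hi. The higher autophagy genes included the cargo receptor Sqstm1 (9.36, 12.43 and 12.69), the autophagosome gene Map1lc3b (9.10, 11.49 and 11.77) and Wipi2 (7.65, 9.93 and 10.04). Wipi1 (9.33 in Hi, against 9.71 in Med) and Atg7 (8.72 in Hi, against 9.03 in Med) differed most between Hi and Med.

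Sorting genes were mixed, with 5 of 15 above 2-fold in Med (33.3%) and 4 in Hi (26.7%), and 1 below it in each. Those shares lay under those of the genes whose mean over Med and Hi reached the median (36.2% and 34.6%). The sorting genes had a median of 0.72 in each column. The median turned its sign with quantile normalization (-0.44 in Med, -0.41 in Hi) and cyclic loess (-0.20 and -0.16). The mannose 6-phosphate receptor gene Igf2r (Ctrl 7.33, Med 9.89 and Hi 9.24) and the adaptor gene Ap3b1 (7.78, 10.39 and 10.39) were higher. The receptor gene Sort1, which carries some hydrolases and prosaposin, was lower (7.95, 6.32 and 6.22). Cln8, which helps to carry enzymes out of the endoplasmic reticulum, was at 7.15, 8.18 and 7.98.

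Genes of the MiT/TFE factors and of the lysosomal platform that recruits mTORC1 had 2 of 15 genes 2-fold higher and 1 lower in each column, a share of higher genes below that of all genes (18.3% in Med and 17.5% in Hi), and medians of 0.17 and 0.26 that turned to -0.35 in Med and -0.33 in Hi with quantile normalization. Tfeb was at 7.90 (Ctrl), 7.63 (Med) and 7.64 (Hi), Tfe3 at 8.45, 8.91 and 8.91, and Mitf at 5.89, 5.64 and 5.64. None of these 3 genes was 2-fold apart from Ctrl, and the sign of each turned under at least 1 scaling (Tfeb 0.03 and Mitf 0.05 in Med with centring on all probe sets, Tfe3 -0.21 in Med with quantile normalization). Mitf lay below the background gauge in every column, so its differences are between signals of the background range. The array reads mRNA and not the nuclear entry of these factors. The scaffold gene Lamtor3 was higher (7.75, 10.45 and 10.44), the GTPase gene Rragc past 2-fold as deposited (8.41, 9.54 and 9.54) and not with quantile normalization (0.40 in Med), and its relative Rragd lower (6.99, 5.21 and 5.43), with Rragd at -0.96 in Hi under cyclic loess. Rragd lay below the gauge in Med and Hi, so the size of its difference is not known. Fnip2, which works with the GTPase-activating folliculin, was at 8.25 in Hi, against 8.67 in Med.

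Of the cathepsin inhibitor genes, 3 stood far above Ctrl. Cst3, the secreted cystatin C, was at 7.94 (Ctrl), 13.09 (Med) and 13.04 (Hi). The cytosolic cystatin gene Cstb was at 6.33, 10.22 and 10.66, and the serpin gene Serpinb6a at 6.10, 11.12 and 10.93. The Ctrl levels of Cstb and Serpinb6a lay below the background gauge. These 3 of 7 inhibitor genes were 2-fold higher in each column and 0 were lower, where 18.3% of all genes were higher in Med and 17.5% in Hi. In Med, Cst6 (-0.75), Cst7 (-0.74) and Stfa2 (-0.96) lay below Ctrl, but all 3 were under the gauge in every column, so these are differences between background signals.

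**Figure D4:**
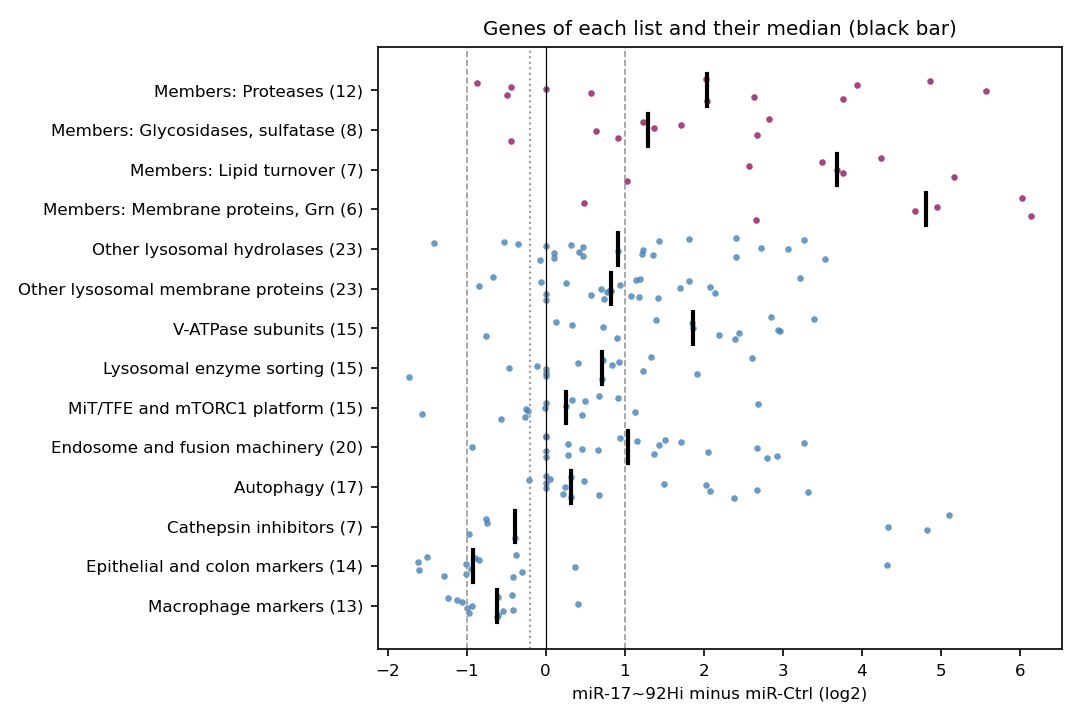
Log2 difference of miR-17~92Hi from miR-Ctrl (x axis) for every measured gene of each list (points, lists as rows with the number of genes in brackets) and the list median (black bar), with the lysosomal genes of the 4 role groups in purple, 2-fold lines dashed and the median of all genes (-0.19) dotted. Medians run from 1.30 to 4.82 in the role groups and up to 1.86 in the other lists, that of the V-ATPase subunits, and lie at -0.92 for epithelial and -0.61 for macrophage markers.

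High against medium levels of the cluster is the comparison without the Ctrl column. For 25 of 33 members (75.8%) Hi and Med lay within 0.2 of each other, against 85.2% of all genes. Of 33 members, 1 (3.03%) was 2-fold lower in Hi than in Med and 0 were higher, where 0.512% of all genes were lower and 0.406% higher. The median difference was 0.00 in the members and over all genes. Members numbered 12 above 0, 14 below and 7 with identical values. Identical values made up 21.2% of the members and 51.1% of all genes, or 46.5% of the genes whose mean over Med and Hi reached the median. They included genes at high levels, such as Lamp1 (11.83 in both columns) and Asah1 (11.51), and what produced them was not tested. The closeness of Hi and Med is therefore no measure of agreement between separate samples. Across the 33 members the levels of Hi and Med correlated at r = 0.987 and those of Med and Ctrl at r = 0.437, against 0.993 and 0.797 over all genes. Genes within a column share its normalization and are no replicates.

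Cd68 was at 7.67 in Hi, against 9.12 in Med, a difference of -1.45 with 0.135% of all genes lower still. Between scalings it ran from -1.24 to -1.46, 2-fold under each. The difference of the macrophage markers had a median of 0.00 and ran from -0.25 (Mpeg1) to 0.13 (C1qb). Npc1 was at 10.18 in Hi, against 11.16 in Med, a difference of -0.98 that stayed under 2-fold under every scaling (-0.87 to -0.99). Its partner Npc2 was at 12.56 in Hi, against 12.54 in Med. Hexa (-0.40) and Scarb2 (-0.37) were also lower in Hi, both inside the central 95% of all genes (-0.52 to 0.34).

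Ctsd, Gaa and Ctsz were higher in Hi. Ctsd was at 11.47 in Hi, against 10.82 in Med, a difference of 0.65 with 99.2% of all genes below it. Gaa differed by 0.56 (10.99 in Hi, against 10.43 in Med) and Ctsz by 0.41 (11.66 in Hi, against 11.25 in Med). These 3 differences kept their direction under every scaling, from 0.40 for Ctsz upwards. Altogether 7 members (21.2%) were at least 0.3 apart in either direction, against 8.91% of all genes and 15% of those whose mean over Med and Hi reached the median. In the deposited values, none of the other lists held a gene 2-fold apart between Hi and Med. The endosome tether gene Eea1 (8.26 in Hi, against 9.25 in Med), the mannosidase gene Manba (8.56 in Hi, against 9.52 in Med) and the stefin gene Stfa3 (4.76 in Hi, against 5.71 in Med) came nearest, with Stfa3 past 2-fold under quantile normalization (-1.02) and Eea1 at the 2-fold line under centring on all probe sets.

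**Figure D5:**
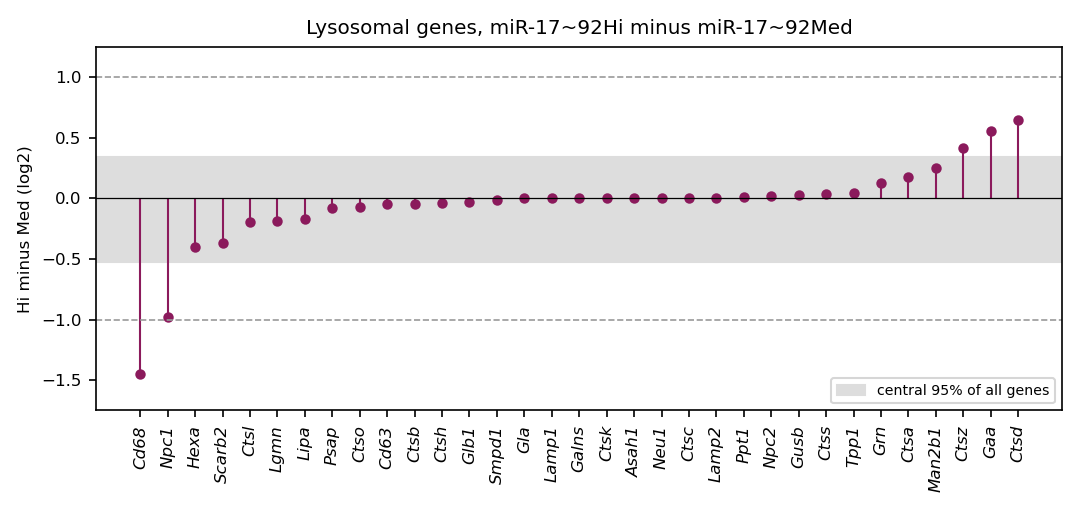
Log2 difference of miR-17~92Hi from miR-17~92Med (y axis) for each of the 33 lysosomal genes (x axis, sorted), with the central 95% of all genes as a grey band and 2-fold lines dashed. Cd68 at -1.45 is the 1 gene past a 2-fold line, Npc1 lies at -0.98, and Ctsd, Gaa and Ctsz lie above the band.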

How the data were processed

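Total RNA (100 ng per sample) was amplified with random primers, labelled with biotin and hybridized to an Affymetrix array, per the labels' protocols. The authors deposited 3 columns over 35556 probe sets, taken as log2 values from their range (2.13 to 14.8), as no label gives the base. Affymetrix Expression Console and GCRMA are named in the submitters' processing notes, with no role or version. Probe intensities behind the columns were not used here, and with 1 column per group no precision could be measured.

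Probe sets with 1 gene in GEO's platform annotation (21789) were renamed through gene numbers to RefSeq symbols of GRCm38.p6 (99.6% matched) and averaged per gene, giving 19938 genes. No value column was left unmapped (0). Every member entered with no filter on low values. Counts used 2-fold, with 1.5-fold and 4-fold, other scalings and filters as alternatives. Cyclic loess came from limma 3.58.1 in R 4.3.3, and the counting was tested on simulated data. All members are named; of each other list, up to 3 genes furthest from Ctrl and 2 furthest apart between Hi and Med are named by rule, and other marker and inhibitor genes were picked with their values in view. Members and lists were chosen with earlier results of these data known. A planned comparison of protein features was not run, and protein sequences were not used here.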

Additional observations from a re-analysis of the deposited data

Results flagged for a closer look

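The stefin gene Stfa3 drew attention because it lay on opposite sides of Ctrl at medium and high levels of the cluster: it differed from Ctrl by 0.57 in Med and by -0.39 in Hi. The median of the 7 cathepsin inhibitor genes was set by the same gene, at 0.57 in Med and -0.39 in Hi. Stfa3 was at 5.14 (Ctrl), 5.71 (Med) and 4.76 (Hi), under the receptor gauge in every column, and it has close relatives in the stefin family whose transcripts a probe set may share. With cyclic loess its difference in Hi was 0.09, on the same side as in Med, and with centring on the more strongly measured genes its difference in Med was -0.03, on the same side as in Hi. The difference between the columns was not tested.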

How the results depend on the processing

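The counts of members 2-fold higher than Ctrl stayed within 1.5 times of the reported ones under every scaling and fold tried. They ran from 18 to 28 in Med and from 19 to 26 in Hi. The median over the 33 members stayed past 2-fold under every scaling (1.67 to 2.56 in Med, 1.44 to 2.92 in Hi). With a filter on the mean, 29 members entered, with medians of 3.08 in Med and 2.67 in Hi. The filters favour genes high in Med and Hi, so they are no check. Medians of the proteases and glycan enzymes did not stay past 2-fold under every scaling, and those of the sorting, autophagy and MiT/TFE lists turned their sign. Members 2-fold lower than Ctrl, 0 as reported, numbered 1 in Med and 1 in Hi with quantile normalization (Neu1), 4 in Med and 2 in Hi with centring on the more strongly measured genes, and 1 in each at 1.5-fold. The shares of all genes lower in Med and Hi were 15.5% and 14.7% with quantile normalization. They were 42.8% and 40.2% with that centring, and 35.5% and 34.9% at 1.5-fold. Hi against Med gave 1 higher and 2 lower members at 1.5-fold, and 0 lower at 4-fold. For all genes that comparison gave 1.01% higher and 2.04% lower at 1.5-fold, and 0.0502% lower at 4-fold. Of the named genes outside the set, the membrane protein gene Sidt2 had its sign against Ctrl turned in Med with cyclic loess (1.17 as deposited, -0.0297 with loess) and in Hi with quantile normalization (-0.28) and loess (-0.40, against 0.77 as deposited); the cause was not tested. Taking the highest probe set of a gene changed no member, each having 1, and no probe set of several genes included a member (0), so that alternative was not run. No paired analysis was possible because the labels give no replicate numbers and each group has 1 column. Levels below the receptor gauge set a floor: in Ctrl 8 members lay there and in Med and Hi 4 each, so folds from them have no known size.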
